A study of Homo sapiens with 2 samples.

Results

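The genes described here are 54 mitotic genes, listed by symbol, that encode the kinases, cyclins, checkpoint proteins, kinetochore subunits, motors and chromosome proteins of cell division. All 54 were found by symbol among the 26506 genes of the deposited tables, and membership follows function rather than a value cut-off, although the list was drawn up with earlier results of these data known. Poly(A) RNA was sequenced from an established human corneal epithelial line (ATCC CRL-11515) after 72 hours in either of 2 media. KSFM is a serum-free keratinocyte medium, for which no CaCl2, EGF or antimicrobial content was available here. The alternative, the "special medium" of the labels, contained serum of fetal cattle (10%) in DMEM/F12, with 1x antibiotic/antimycotic, CaCl2 at 1 mM and 10 ng/mL of EGF. Each medium is represented by 1 library made from the pooled RNA of 3 cultures, so no difference has a replicate check and no p-value is given. The labels give no cell counts, confluence or growth rates for either medium.

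A cell enters mitosis when CDK1, bound to cyclin B, is freed of inhibitory phosphate by CDC25 phosphatases. Kinetochores then bind spindle microtubules, the spindle assembly checkpoint holds back the anaphase-promoting complex (APC/C) until every chromosome is attached, and separase cuts cohesin. Most genes of this program are silent in resting cells and are transcribed in G2 and mitosis under FOXM1, B-MYB and the MuvB core. In a stratified epithelium such as the cornea, dividing cells belong to the basal layer and to the limbus. In RNA from whole cultures, more cells in G2 and mitosis and more of these transcripts per dividing cell cannot be told apart.

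The KSFM library held 21604652 counts and the special medium library 16900472. Values per library are given in CPM (counts in each 1000000 after scaling for library size) for comparisons between media, and in the deposited TPM, which adjusts for transcript length, for comparisons between genes. Folds are special medium over KSFM unless stated, and the range after a fold is an exact 95% Clopper-Pearson interval that covers counting error only. Of 12 corneal epithelial markers 7 passed 1 CPM. The general epithelial genes EPCAM (301 TPM in KSFM and 449 in the special medium) and CDH1 (197 and 176) were abundant, and the basal keratin KRT5 was at 68.7 and 51.1 TPM. TKT (186 and 608 TPM, 2.83-fold) and KRT15 (2.93 and 11.3 TPM, 3.40-fold) were higher by at least 2-fold in the special medium. The defining corneal keratin KRT12 had 0 counts in both libraries and KRT3 had 0 and 1, while KRT14 (4 and 10), TP63 (5 and 13) and ALDH3A1 (5 and 14) were near absent. Most markers of other cell types had few counts. Of 6 endothelial markers only CDH5 passed 1 CPM, with 3 and 236 counts, the list's summed TPM was 0.30 and 7.82, and TEK had 0 counts in both. Of 7 immune markers 3 passed, the list summed to 62.6 and 77.1 TPM, of which CD68 gave 59.5 and 70.9, and CD3E and NKG7 had 0 counts in both. CD14 had 2 and 62 counts and LYZ 48 and 11. The corneal endothelial marker SLC4A11 had 51 and 90 counts (2.25-fold, 1.58 to 3.24). Their part in the results below was not tested.

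Transcripts of the mitotic genes were more abundant in the special medium, by a modest and uneven amount. The ratio was above 1 for 51 of 54 genes (94.4%), against 50% of the 13632 genes that reached 1 CPM in either library. Its median over the 54 genes was 1.68-fold (log2 0.75), against a median log2 ratio of 0.00 over those 13632 genes. All 54 genes passed that filter, with 350 to 12158 counts per library. A gene was called past the 2-fold rule when its ratio was at least 2-fold and its interval excluded equality. By that rule 15 of the 54 genes (27.8%) were higher in the special medium, against 9.86% of all genes, and 0 were lower, against 6.77%. Among genes at 10 CPM or more, a level that all 54 genes reached, 7.57% were called higher and 4.28% lower. At a 1.5-fold rule 35 mitotic genes were higher (18.7% of all genes) and 1, CENPM, was lower (16.1% of all genes). None reached 4-fold in either direction (2.99% of all genes higher, 1.19% lower). The interval lay wholly beyond 2-fold for 10 genes upward (6.14% of all genes) and 0 downward (2.9%). The interval alone excluded equality for 50 genes upward (37.2% of all genes) and for 3 downward, namely INCENP, ZWINT and CENPM (36.7% of all genes).

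**Figure D1:**
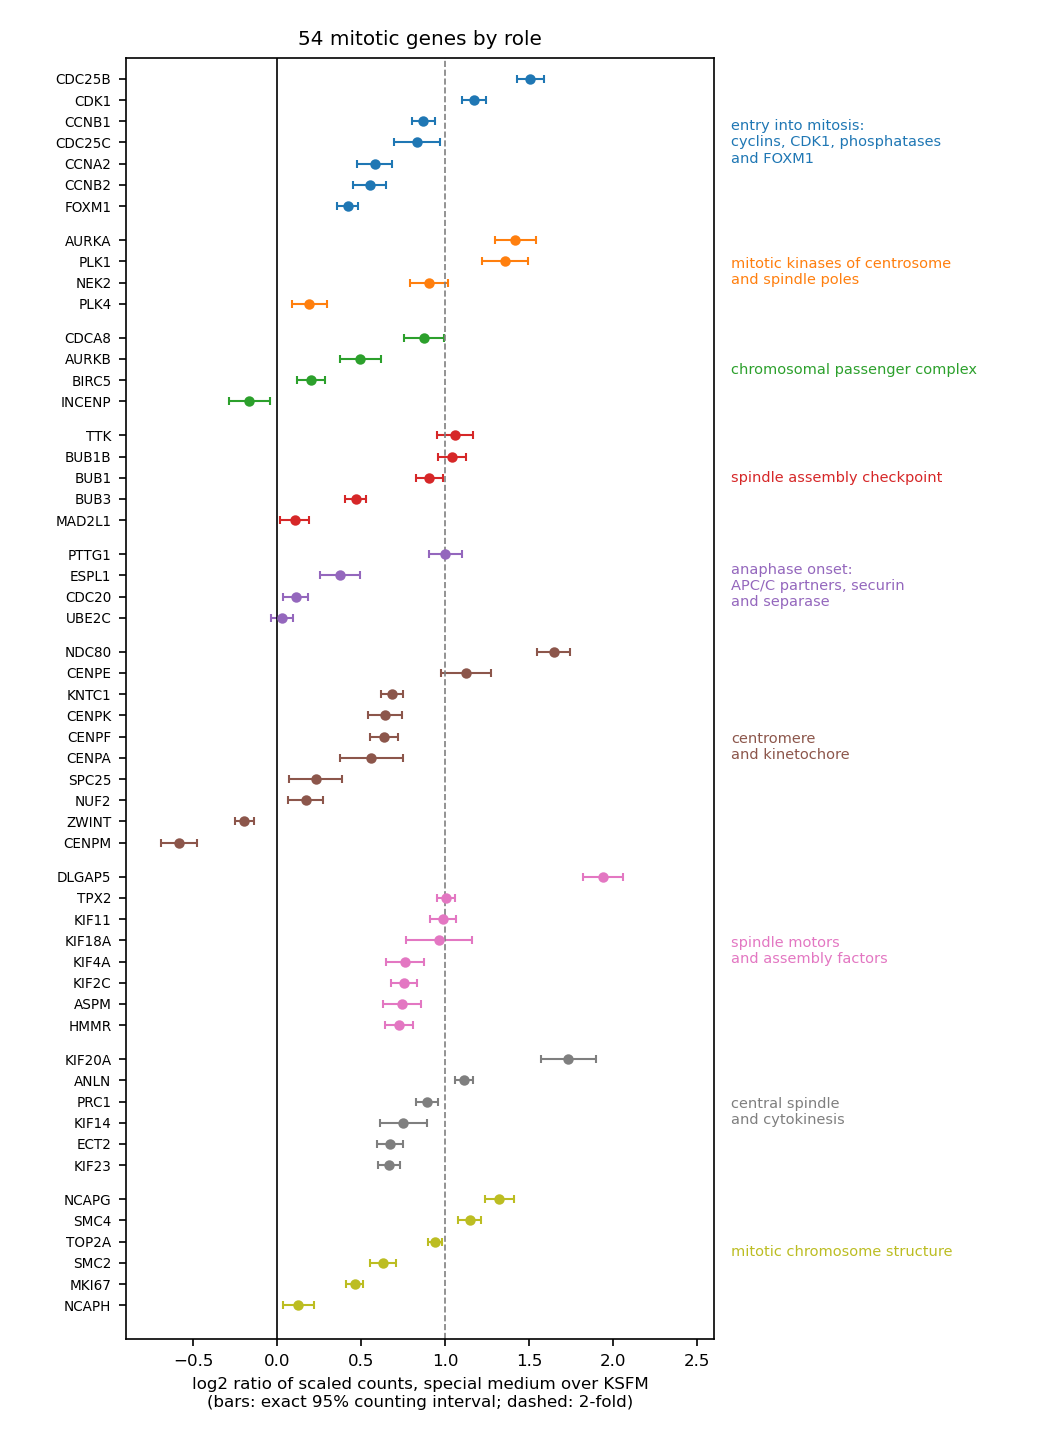
Each point is the log2 ratio of scaled counts, special medium over KSFM, for 1 of the 54 genes, grouped and coloured by role, with the exact 95% counting interval as a bar. Most points lie between 0 and the dashed 2-fold line, DLGAP5 lies furthest to the right at 1.94, and CENPM, ZWINT and INCENP lie left of 0.

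The interquartile range of the log2 ratios was 0.46 to 1.00, so the 2-fold rule cuts through a dense part of the range. PTTG1 (2.0-fold) and TPX2 (2.01-fold) were just inside it, and KIF11 (1.98-fold) and KIF18A (1.95-fold) just outside, with intervals that reach both sides. PTTG1 fell short of the rule with DESeq2 size factors and with upper quartile scaling (log2 0.98), and TPX2 with the latter (log2 0.98). On the deposited TPM, without recentring, 23 genes passed 2-fold with a pseudocount of 1. On that scale the whole distribution shifts, with the all-gene median 0.15 higher in log2. Of all genes called there, 78.4% were higher, against 59.3% on counts. After recentring on that median, 15 genes passed.

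Promoter sequences of a few members are shown because cell cycle factors are known to read them. The MuvB core binds the cell cycle genes homology region (CHR), searched here as TTTGAA or TTCGAA on either strand, and the factor NF-Y binds the CCAAT box, searched as CCAAT on either strand. RefSeq promoters on GRCh38.p14, which run from 250 bases before the start to 50 after, were matched to 45 of the 54 genes as 60 windows, since some genes have several starts. A CHR match was present in 39 of 60 windows (65%), against 16.4% of all 35116 windows and 11.7% of the 14783 windows of genes at 1 CPM or more. A CCAAT match was present in 42 of 60 (70%), against 34.6% of all windows. Both were present in 30 of 60, against 6.38% of all windows. An E2F-type match (TTTGGCGC or TTTCGCGC, either strand) was found in 2 of 60, both at CDK1, against 1.15% of all windows. A match is a description of the letters and was not tested for binding.

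The 120 bases before the start are printed 5′ to 3′ on the gene's strand, with CCAAT and CHR matches on either strand in capitals. KIF20A and PLK1 were past the 2-fold rule, CCNB2 is an example with both motifs and a smaller ratio, and INCENP and ZWINT had ratios below 1.
KIF20A, chr5:138178992-138179111, plus strand: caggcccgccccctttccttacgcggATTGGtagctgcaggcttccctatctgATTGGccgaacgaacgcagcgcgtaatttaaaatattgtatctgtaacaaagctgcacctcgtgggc
PLK1, chr16:23678769-23678888, plus strand: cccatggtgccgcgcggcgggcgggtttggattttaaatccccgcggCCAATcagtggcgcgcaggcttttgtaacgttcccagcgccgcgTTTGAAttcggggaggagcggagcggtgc
CCNB2, chr15:59105026-59105145, plus strand: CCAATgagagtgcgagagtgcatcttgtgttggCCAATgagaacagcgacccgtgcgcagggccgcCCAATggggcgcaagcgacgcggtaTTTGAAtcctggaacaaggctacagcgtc
INCENP, chr11:62123891-62124010, plus strand: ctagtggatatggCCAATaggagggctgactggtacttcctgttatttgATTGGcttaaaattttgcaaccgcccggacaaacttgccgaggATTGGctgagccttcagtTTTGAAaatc
ZWINT, chr10:56361274-56361393, minus strand: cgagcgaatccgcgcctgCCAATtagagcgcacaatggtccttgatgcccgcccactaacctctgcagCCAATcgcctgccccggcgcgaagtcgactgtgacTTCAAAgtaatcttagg

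In these windows PLK1 holds 1 CCAAT box and 1 CHR, CCNB2 holds 3 and 1, and KIF20A holds 2 CCAAT boxes and 0 CHR matches. INCENP (3 and 1) and ZWINT (2 and 1) carry the same pair of motifs as PLK1, although their ratios lay on the other side of equality. Over the 45 genes with a promoter, the median log2 ratio was 0.75 for the 35 with a CHR match and 0.81 for the 10 without. In the 250 bases before the start the order turned, with 0.83 for the 27 with a match and 0.70 for the 18 without. For the CCAAT box it was 0.73 for the 36 with a match and 1.11 for the 9 without.

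By deposited TPM the mitotic genes spanned 6.08 to 449 in KSFM and 14.8 to 536 in the special medium, with medians of 46.5 and 98.5. The order of abundance was much the same in both libraries (Spearman rho 0.93 across the 54 genes, a description that includes length and assignment effects shared by both). UBE2C was the most abundant and CENPE the least abundant in both. The clearest move down the order was that of CENPM, from rank 3 to rank 16, while DLGAP5 went from rank 46 to rank 28. Genes at 100 TPM or more numbered 12 in KSFM and 26 in the special medium. The share of all genes at that level was not computed. TPM ran higher in the special medium over all genes too (median log2 ratio 0.15 with a pseudocount of 1). The TPM medians and counts therefore do not measure the difference between media, for which scaled counts gave a median of 1.68-fold.

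**Figure D2:**
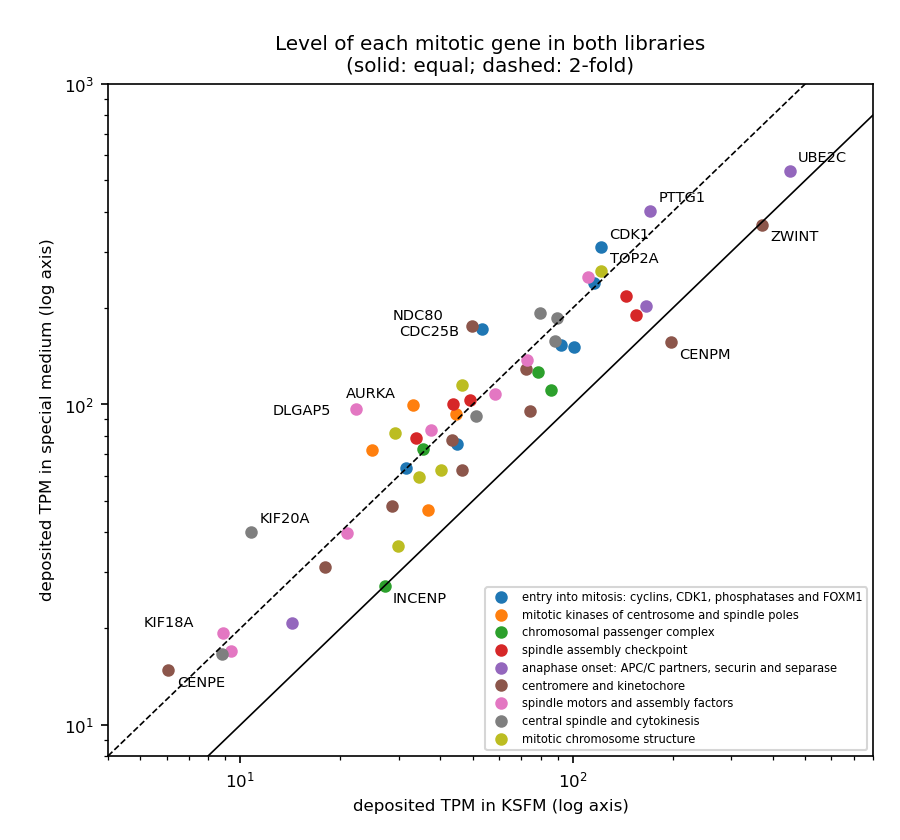
Each point is 1 of the 54 genes, with deposited TPM in KSFM on the horizontal log axis and in the special medium on the vertical log axis, coloured by role. The solid line marks equality and the dashed line 2-fold. The points crowd around the dashed line, with UBE2C at the top right and ZWINT, CENPM and INCENP on or below equality.

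Genes that drive entry into mitosis all had ratios above 1, and 2 of 7 passed 2-fold. CDC25B, a phosphatase that starts activation of cyclin-CDK complexes at the G2/M boundary, measured 84.1 CPM in KSFM and 239 in the special medium, a 2.84-fold difference (2.69 to 3.0). CDK1, the mitotic kinase itself, measured 119 and 269 CPM, 2.25-fold (2.14 to 2.36), and at 122 and 309 TPM it was the most abundant gene of the group in both libraries. Its partner cyclins had smaller ratios. CCNB1 was at 130 and 238 CPM (1.83-fold, 1.74 to 1.92), CCNA2 at 65.9 and 98.5 (1.49-fold), and CCNB2 at 72.7 and 106 (1.46-fold, 1.37 to 1.57). CDC25C, the phosphatase of the final activation step, was at 35.5 and 63.1 CPM (1.78-fold). FOXM1, the transcription factor of late cell cycle genes, had the smallest ratio of the group, 1.34-fold (1.28 to 1.40), from 188 to 252 CPM.

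Among kinases of the centrosome and spindle poles, AURKA and PLK1 passed 2-fold and the centriole kinase did not. AURKA, the Aurora kinase that builds the spindle poles, measured 38.0 and 102 CPM (2.67-fold, 2.46 to 2.91). PLK1, which acts from centrosome maturation to cytokinesis, measured 29.6 and 75.8 CPM (2.56-fold, 2.33 to 2.82). NEK2, a kinase that separates centrosomes, was at 48.5 and 90.7 CPM (1.87-fold, 1.73 to 2.02). PLK4, which starts centriole duplication earlier in the cycle, was at 75.3 and 86.0 CPM (1.14-fold, 1.06 to 1.23), so its interval does not meet those of the other kinases in the group.

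The chromosomal passenger complex, which corrects faulty attachments and prepares cytokinesis, was the only role group besides the kinetochore with a member below equality, and 0 of its 4 genes passed 2-fold. CDCA8, the borealin subunit, was at 45.0 and 82.4 CPM (1.83-fold, 1.68 to 1.99). AURKB, the kinase, was at 49.1 and 69.1 CPM (1.41-fold), and BIRC5, the survivin subunit, at 119 and 136 (1.15-fold, 1.09 to 1.22). INCENP, the scaffold, was at 59.8 and 53.3 CPM, 1.12-fold lower (1.03 to 1.22). On TPM the most abundant subunit was BIRC5 in KSFM (85.8 TPM) and AURKB in the special medium (126 TPM), and INCENP was the least abundant in both, at 27.2 and 27.1 TPM.

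Of the 5 spindle assembly checkpoint genes, 2 passed 2-fold. TTK, the kinase that recruits the checkpoint to unattached kinetochores, measured 53.4 and 111 CPM (2.08-fold, 1.93 to 2.24). BUB1B, the BubR1 subunit of the inhibitor that binds CDC20, measured 86.3 and 178 CPM (2.06-fold, 1.94 to 2.18). BUB1, the kinetochore kinase, came close to these at 94.6 and 177 CPM (1.87-fold, 1.77 to 1.98), with its interval short of 2-fold. BUB3, the adaptor of BUB1 and BubR1, was at 184 and 255 CPM (1.38-fold). MAD2L1, the MAD2 protein that closes around CDC20, was at 113 and 122 CPM (1.07-fold, 1.01 to 1.14), although it was the most abundant of the 5 in KSFM, at 155 TPM against 145 for BUB3.

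Genes of anaphase onset had the lowest median log2 ratio of the 9 role groups, 0.24, and only PTTG1 of the 4 passed 2-fold, a call lost under the 2 scalings named above. PTTG1, the securin that restrains separase, measured 63.1 and 126 CPM (2.0-fold, 1.87 to 2.14) and 171 and 403 TPM. ESPL1, the separase, was at 50.9 and 66.0 CPM (1.30-fold, 1.19 to 1.41). CDC20, the APC/C activator that the checkpoint inhibits, was at 143 and 154 CPM (1.08-fold, 1.02 to 1.14). UBE2C, the ubiquitin-conjugating enzyme that works with the APC/C, was at 185 and 188 CPM (1.02-fold, 0.973 to 1.07), and its interval was the only one of the 54 to include equality.

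Centromere and kinetochore genes were the most spread group, from log2 −0.59 to 1.65, with 2 of 10 past 2-fold. NDC80, a microtubule-binding subunit of the complex that carries its name, measured 56.1 and 175 CPM (3.13-fold, 2.92 to 3.35). CENPE, a kinesin that carries chromosomes to the spindle equator, measured 27.3 and 59.6 CPM (2.18-fold, 1.97 to 2.42). A middle set lay between 1.48-fold and 1.61-fold: KNTC1 of the complex that recruits dynein and MAD1, the inner kinetochore subunit CENPK, the corona protein CENPF and the centromeric histone CENPA. SPC25 was at 31.7 and 37.1 CPM (1.17-fold, 1.05 to 1.31) and NUF2 at 73.3 and 82.4 (1.12-fold, 1.05 to 1.21), although both sit in the same complex as NDC80.

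At the other end of that group, ZWINT, a linker at the outer kinetochore, was at 310 and 271 CPM, 1.14-fold lower in the special medium (1.10 to 1.19). It was nevertheless the most abundant kinetochore gene in both libraries, at 372 and 364 TPM. CENPM, a subunit of the constitutive centromere network, was at 98.2 and 65.4 CPM, 1.5-fold lower (1.40 to 1.62), and at 198 and 156 TPM. Neither passed the 2-fold rule, and CENPM stood at the 17th percentile of all genes' ratios (17.0), where NDC80 stood at 95.7.

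Spindle motors and assembly factors formed a tight group apart from 1 gene. DLGAP5, a spindle assembly factor that stabilises microtubules near chromosomes, measured 35.8 CPM in KSFM and 137 in the special medium, 3.83-fold (3.53 to 4.16), which was the largest ratio of the 54 and higher than 96.8% of all genes. TPX2, which activates AURKA on microtubules, measured 215 and 432 CPM (2.01-fold, 1.93 to 2.08), and was the most abundant of the group at 111 and 249 TPM. The other 6 genes, none past 2-fold, lay between 1.65-fold and 1.98-fold. They were the bipolar spindle motor KIF11, the chromosome alignment motor KIF18A, the chromosome-bound motor KIF4A, the depolymerase KIF2C, the pole organiser ASPM, and HMMR, which was lowest at 95.5 and 158 CPM (1.56 to 1.75).

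Central spindle and cytokinesis genes had ratios from 1.59-fold to 3.33-fold, and 2 of 6 passed 2-fold. KIF20A, a kinesin that brings PLK1 and the passenger complex to the midzone, measured 19.7 and 65.7 CPM (3.33-fold, 2.97 to 3.73), the second-largest ratio of the 54. ANLN, anillin, a scaffold of the contractile ring, measured 203 and 438 CPM (2.16-fold, 2.08 to 2.25) and was the most abundant of the group in the special medium at 192 TPM. PRC1, which bundles the midzone microtubules and was the most abundant in KSFM at 89.9 TPM, was at 148 and 275 CPM (1.85-fold). KIF14 followed at 1.68-fold, and ECT2, the exchange factor that activates RhoA, and KIF23, a centralspindlin motor, were both at 1.59-fold (1.51 to 1.68 and 1.52 to 1.66).

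Genes of mitotic chromosome structure were all above 1, and 2 of 6 passed 2-fold, both of them condensin subunits. NCAPG measured 74.0 and 185 CPM (2.50-fold, 2.35 to 2.66) and SMC4 132 and 292 CPM (2.21-fold, 2.11 to 2.32). TOP2A, the topoisomerase that untangles sister chromatids, measured 375 and 719 CPM (1.92-fold, 1.86 to 1.97), just short of the rule, and was the most abundant of the group at 122 and 261 TPM. SMC2 was at 111 and 171 CPM (1.55-fold). MKI67, the Ki-67 protein widely used to count cycling cells, was at 260 and 358 CPM (1.38-fold, 1.33 to 1.43), below the 1.68-fold median of the 54. NCAPH, a condensin I subunit, was at 96.3 and 105 CPM (1.09-fold, 1.02 to 1.16).

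Partners of one complex often had unequal ratios, so their TPM balance differed between libraries. These pairs were picked after their values were seen, and the ranges that follow are approximate 95% intervals from the counts. NDC80 was at 0.668 times the TPM of its direct partner NUF2 in KSFM and 1.84 times in the special medium, a log2 difference between their ratios of 1.48 (1.33 to 1.62). Within the same complex NUF2 and SPC25 kept their balance, at 1.60 and 1.53 times (log2 difference −0.06, −0.25 to 0.13). NCAPG went from 0.982 to 2.25 times the TPM of NCAPH, a log2 difference of 1.20 (1.07 to 1.32), whereas the 2 SMC subunits of condensin went from 1.35 to 1.94 times, SMC4 over SMC2 (0.52, 0.41 to 0.62).

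Securin and separase moved apart as well, with PTTG1 at 11.9 times the TPM of ESPL1 in KSFM and 19.4 times in the special medium (log2 difference 0.63, 0.47 to 0.78). BUB1B went from 0.281 to 0.528 times MAD2L1, both subunits of the inhibitor that holds CDC20 (log2 difference 0.94, 0.82 to 1.06). Among the CDC25 phosphatases, CDC25B went from 1.10 to 4.27 times CDC25A, the family member that also acts at G1/S. CDC25B itself was 2.84-fold higher, while CDC25A was at 95.2 and 70.0 CPM, 1.36-fold lower (1.26 to 1.46). CDC20 and UBE2C kept their balance (0.369 and 0.379 times; log2 difference 0.08, −0.02 to 0.18).

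**Figure D3:**
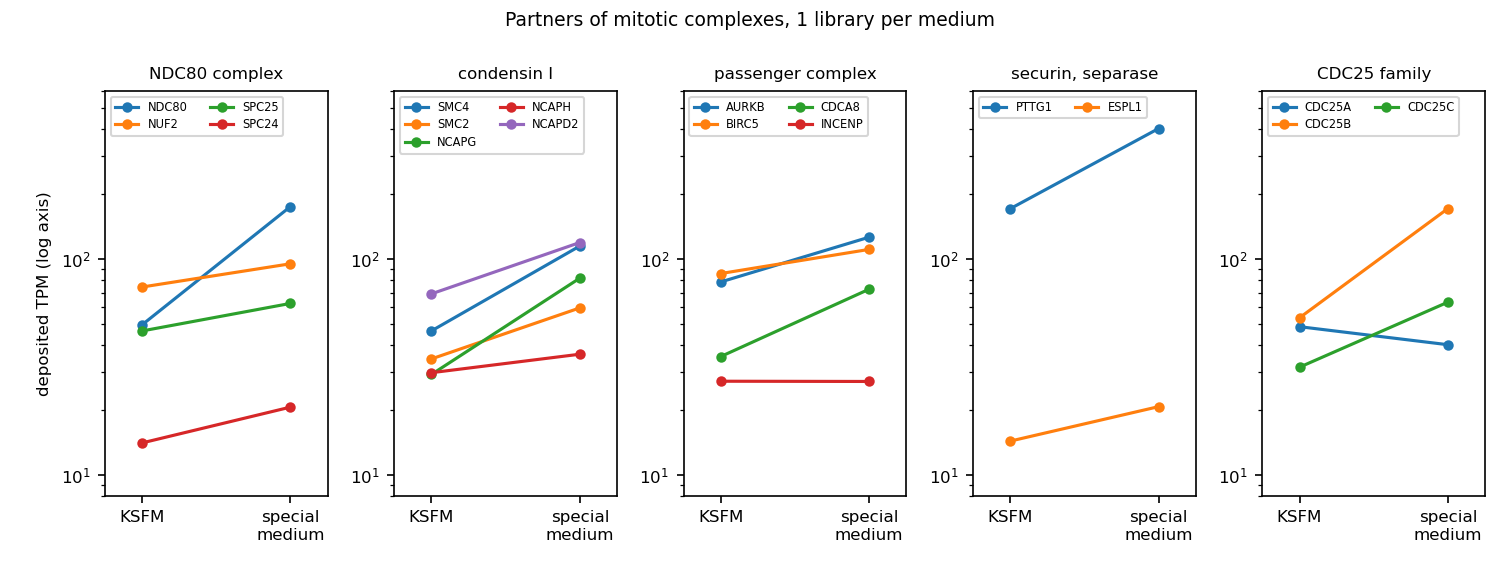
Each line joins the deposited TPM of 1 gene (log axis) in the KSFM library and in the special medium library, for 4 complexes or pairs and the CDC25 family. The NDC80 line crosses that of NUF2 and the CDC25A line falls while that of CDC25B climbs, whereas NUF2 and SPC25 run nearly in parallel.

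Other genes of the pathway were read from 9 further lists, and the median ratios of these lists were smaller. The 54 genes and the further lists were chosen with earlier results of these data known. The contrast between them can therefore come from how genes were split, and it is only a description. Of 29 other spindle, centriole and cytokinesis genes 2 were past 2-fold upward and 0 downward, with a median log2 ratio of 0.36. They were KIF20B, a kinesin of late cytokinesis (46.9 and 108 CPM, 2.30-fold, 2.13 to 2.48), and TACC3, a spindle microtubule crosslinker (57.7 and 121 CPM, 2.10-fold, 1.95 to 2.25). Of 26 other kinetochore subunits 0 passed the rule in either direction, and their median was 0.02, beside 0.00 for all genes. MIS12 came closest, at 127 and 63.9 CPM, 1.98-fold lower (1.84 to 2.12), with an interval that reaches both sides of 2-fold. Averaged over both libraries, the most abundant in TPM were CENPH (171 and 224) and DSN1 (144 and 148), while in KSFM alone PMF1 was first (180 and 110 TPM, 101 and 53.5 CPM, a 1.88-fold lower ratio, 1.74 to 2.03). Of 13 cohesin genes 1 passed upward (median 0.25, or 0.12 on recentred TPM with a pseudocount of 1). It was the shugoshin gene SGO2, listed as SGOL2 (17.0 and 42.4 CPM, 2.50-fold, 2.20 to 2.85). The shugoshin gene SGO1, listed as SGOL1, was at 27.6 and 25.1 CPM (0.909-fold, 0.800 to 1.03). None of the 4 other condensin subunits passed (median 0.29); NCAPH2 (158 and 123 TPM) and NCAPD2 (69.1 and 119 TPM) were the most abundant.

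The APC/C list had 1 of 17 genes past the rule, downward, and a median of −0.03. That gene was ANAPC11, the RING subunit of the ligase (118 and 48.0 CPM, 2.46-fold lower, 2.28 to 2.67). Of 14 G2/M regulators 0 passed (median 0.17), with CKS1B (635 and 423 TPM) and ENSA (288 and 333 TPM) the most abundant. Among 16 DREAM, MYB and E2F genes 2 were higher and 1 lower (median 0.11). The pocket protein gene RBL2 was 2.05-fold higher (1.92 to 2.19) and E2F5 2.10-fold higher (1.84 to 2.40), both of them partners in repression in resting cells, and LIN52, a MuvB subunit, was 2.19-fold lower (1.95 to 2.46). MYBL2, the B-MYB gene, was at 720 and 983 TPM.

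Genes of G1/S and DNA replication had a median log2 ratio of 0.26, and 25 of the 35 had ratios above 1, against 50% of all genes. None of the 6 CDK inhibitors at 1 CPM or more passed 2-fold, and their median log2 ratio was −0.55. Ratios were below 1 for 4 of them and above 1 for 2. The 2 were CDKN1B (1.27-fold, 1.16 to 1.38) and CDKN2C (1.49-fold, 1.24 to 1.79). CDKN1A, the p21 inhibitor, was at 196 and 120 TPM and CDKN2A at 213 and 140 TPM. With 1 library per medium, differences between these list medians have no test.

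**Figure D4:**
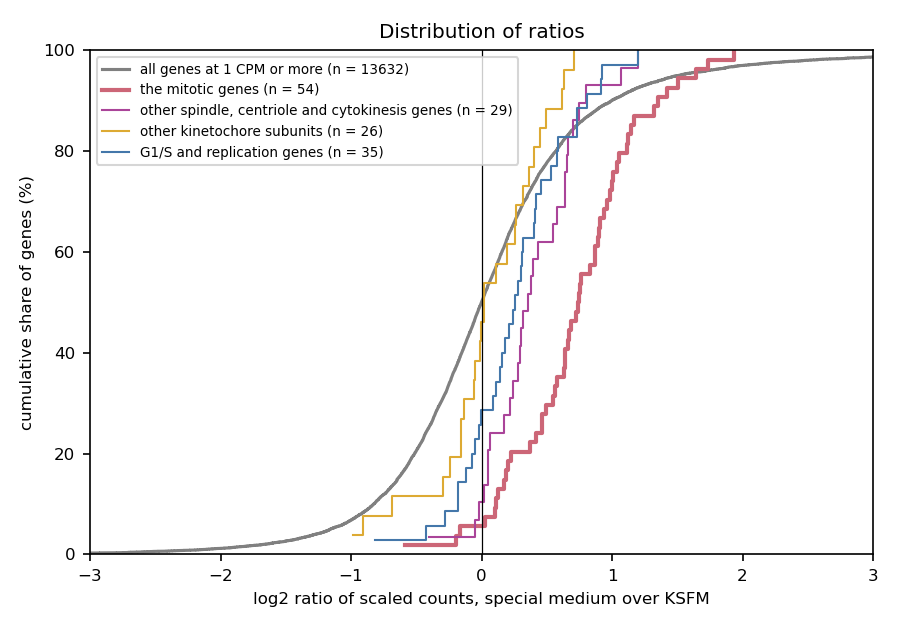
Cumulative share of genes (vertical axis, %) against the log2 ratio of scaled counts, special medium over KSFM (horizontal axis), for the 54 mitotic genes, 3 other lists and all genes at 1 CPM or more. The curve of the 54 genes has its midpoint at 0.75, to the right of the other spindle genes (0.36), the G1/S genes (0.26) and the other kinetochore subunits (0.02). All these lists were chosen with earlier results of these data known.

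Transcript length moved weakly with the ratio. Taking counts per TPM in the KSFM library as a relative effective length, the Spearman rho between length and log2 ratio was 0.20 across the 54 genes and 0.15 across 13585 genes, as a description across genes of 1 pair of libraries. The 18 shortest mitotic genes, which include CENPM, ZWINT, UBE2C, CDC20 and MAD2L1, had a median log2 ratio of 0.56, against −0.15 for the 4038 genes of the same length range. The 18 of middle length had a median of 0.90 (0.08 for genes of their range) and the 18 longest 0.71 (0.06). The part of length in the lower ratios of the short genes was not tested. Estimated counts with any non-zero decimal, as sharing of reads with similar sequence gives, were found for 4 of the 54 genes. These were BUB1B, ECT2, NEK2 and SPC25, so their values are less certain. The SPC25 entry also joins the identifiers ENSG00000152253 and ENSG00000277909, which limits its comparison with NUF2 and NDC80 above. Over all 26506 genes 11.3% of values were fractional in KSFM and 8.05% in the special medium.

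On GRCh38, in GENCODE release 29 gene bounds, DLGAP5 (ENSG00000126787) spans chromosome 14 from 55148112 to 55191678, KIF20A (ENSG00000112984) chromosome 5 from 138178719 to 138187715, and NDC80 (ENSG00000080986) chromosome 18 from 2571511 to 2616635. CENPM (ENSG00000100162), at the low end, spans chromosome 22 from 41938721 to 41947164.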

How the data were processed

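Poly(A) libraries were made with a stranded kit from pooled RNA, 1 per medium, per the labels' protocols. HISAT2 2.1.0 and RSEM on GRCh38, with fastp 0.20.0 and FastQC 0.11.9, are listed in the submitters' processing notes. "Not given in the sources used here" applies to the RSEM version, the annotation and the strand setting. Estimated counts, rounded here before use, and TPM were both deposited by the authors, and each TPM column adds up to 1000000. The 21604652 and 16900472 counts were scaled with edgeR 4.0.16 TMM factors (0.999 and 1.00). Ratios, exact intervals and the 2-fold rule at 1 CPM were checked on Poisson counts with known changes, which hold no variation between cultures. The reads carry no molecular identifiers, so intervals cover counting error only and not repeated copies of 1 molecule.

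The 54 genes, role groups and lists were chosen with earlier results of these data known. Listed genes absent by symbol were matched through RefSeq synonyms (5 genes). Named genes were, in each role group, the highest and lowest ratio, the most abundant and those past the rule; in other lists, up to 3 past the rule or the 2 most abundant; and markers at 10 CPM or more or defining keratins. Other genes were named after their values were seen. Alternatives were scaling by upper quartile, by total count or by DESeq2 1.42.0, use of TPM (pseudocount 1 or 0.1, raw and recentred), other filters and other call rules. R 4.3.3, Python 3.11.15, scipy 1.17.1 and matplotlib 3.10.9 were used. Some items among the further lists are not reported here.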

Additional observations from a re-analysis of the deposited data

How the results depend on the processing

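No replicate could be left out with 1 library per medium, and no paired analysis was possible because each medium has 1 library of pooled RNA. The count of 15 mitotic genes higher was 13 to 15 under the other count scalings, both recentred TPM scales and the filters. It was 23 on TPM with a pseudocount of 1 and 23 with 0.1, 35 by a 1.5-fold rule, 0 by a 4-fold rule and 50 with any fold. The count lower was 1 at 1.5-fold and 3 with any fold. The 54 genes' median log2 ratio was 0.86 and 0.90 on TPM with pseudocounts of 1 and 0.1, and none of the 54 changed sign under any scaling. INCENP (log2 −0.004) and ZWINT (log2 −0.03) were nevertheless close to equality on TPM with either pseudocount, before recentring. The APC/C median turned from −0.03 to 0.13 and 0.14 on those 2 scales, and that of other kinetochore subunits (0.02) was 0.22 and 0.23 there and 0.00 under upper quartile scaling. The cohesin median of 0.25 was 0.12 and 0.11 on recentred TPM.

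Over all genes, the main rule called 1344 higher and 923 lower. TPM called 349 lower with a pseudocount of 1, 536 after recentring, and 605 with 0.1. A filter of 10 CPM left 788 higher and 446 lower; the rules gave 2550 and 2196 (1.5-fold), 408 and 162 (4-fold), 5075 and 5007 (any fold) and 837 and 395 (interval wholly beyond 2-fold). Higher genes were 59.3% of calls on counts, 78.4% on TPM with a pseudocount of 1, 73.4% with 0.1 and 63.4% and 60.5% after recentring. A CHR match was in 50% of mitotic windows within 250 bases before the start, against 14.3% of all windows and 10.1% of those of genes at 1 CPM or more. Counting intervals of the 54 log2 ratios reach a median of 0.09 and at most 0.20 to either side.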
